A study of Homo sapiens with 6 samples.

Results

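The genes described here are 36 genes of the endoplasmic reticulum (ER) folding machinery and of the unfolded protein response, chosen by name and grouped by role. They comprise 11 resident chaperones and cofactors, 6 enzymes of disulfide formation, 10 genes of ER-associated degradation, 5 stress sensors and transcription factors, and 4 genes of translocation, export and ER calcium. All 36 were read by at least 1 probe set, out of 18378 genes tested in all. Of the 36, PDIA3 was read only by probe sets whose annotation also names its pseudogene PDIA3P1, so PDIA3 values may include that transcript. P4HB and PDIA3 had more than 1 probe set, and the brightest by mean of 6 arrays was used.

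RNA came from MDA-MB-231, an established human triple-negative breast cancer line of mesenchymal character. The GHSROS group was transfected with the long noncoding RNA gene GHSROS carried in the pTargeT mammalian expression vector, and the comparison group with that vector left empty. Cells were grown in serum-containing medium. Each group had 3 samples, called biological replicates by the submitters, and each was read on 1 Affymetrix Human Gene array (6 arrays). Nothing says whether the 3 came from separate transfections, so each p describes no more than how these samples varied, which may be technical. The labels used here give neither the time after transfection nor whether cells were selected or cloned, and no agent that causes ER stress is listed for any group. The question asked of these genes is whether their level differs when the cells carry GHSROS. All values are deposited log2 levels from robust multi-array averaging (RMA), so a difference of 1 is a 2-fold difference in level.

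Proteins of the secretory pathway fold in the ER with the help of chaperones and disulfide enzymes, and proteins that fail are pulled back to the cytosol and degraded. When unfolded proteins build up, 3 membrane sensors respond. IRE1, encoded by ERN1, splices the XBP1 transcript, ATF6 is cut to release a transcription factor, and PERK, encoded by EIF2AK3, slows translation and favours production of ATF4. The factors then raise chaperone and degradation genes, and secretory tissues and many tumours depend on them. An array of this kind reads total XBP1 transcript and not its splicing.

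A known landmark of these genes is the ER stress element (ERSE), a CCAAT part and a CCACG part 9 bases apart, and its relative ERSE-II, an ATTGG part and a CCACG part 1 base apart. In RefSeq promoters (build GRCh38.p14, 250 bases before to 50 bases after each annotated start, both strands searched, exact letters only), 32 of the 36 genes had a window. An ERSE was found in 8 of these 32 (25%), against 25 of all 27305 genes (0.0916%). The 8 were HSPA5, HSP90B1, CALR, CANX, CRELD2, PDIA6, ERO1B and XBP1. An ERSE-II was found in 3 of 32 (9.38%), HYOU1, SDF2L1 and HERPUD1, against 19 genes in all (0.0696%). The promoter of HYOU1 also held TGACGTGG, the core of an XBP1 and ATF6 element, which overlaps its farther ERSE-II and occurs in 0.927% of genes, and that of HERPUD1 held TGATGCAA, the core of an ATF4 element, which occurs in 1.08% of genes. Each of these last 2 was found in 1 of 32 genes (3.12%). The genes were chosen by name and these elements are known landmarks of such genes, so their higher shares were foreseeable and test nothing. A match is a description of letters, and binding was not measured.

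The following stretches are shown because they carry these elements in genes whose levels are described below. They are written along the gene, with the matched parts in capitals, and a motif on the opposite strand appears as its reverse complement, as in the farther element of HERPUD1 and the nearer one of HSP90B1. HSPA5 lies at chr9:125241379-125241421 (minus strand), HSP90B1 at chr12:103930204-103930351 (plus), XBP1 at chr22:28800591-28800633 (minus), HERPUD1 at chr16:56931954-56932047 (plus), HYOU1 at chr11:119057262-119057405 (minus) and SDF2L1 at chr22:21642102-21642136 (plus).
HSPA5: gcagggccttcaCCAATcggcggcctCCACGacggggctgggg
HSP90B1: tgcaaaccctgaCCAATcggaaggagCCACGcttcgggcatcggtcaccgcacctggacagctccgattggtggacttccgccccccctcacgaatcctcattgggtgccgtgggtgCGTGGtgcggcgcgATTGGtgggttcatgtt
XBP1: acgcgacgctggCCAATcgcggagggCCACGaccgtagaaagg
HERPUD1: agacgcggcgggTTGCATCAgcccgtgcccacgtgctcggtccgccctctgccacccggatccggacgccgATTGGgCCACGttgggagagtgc
HYOU1: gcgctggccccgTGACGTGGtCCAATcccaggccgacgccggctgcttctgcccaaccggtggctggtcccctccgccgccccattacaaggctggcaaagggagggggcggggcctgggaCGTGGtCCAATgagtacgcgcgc
SDF2L1: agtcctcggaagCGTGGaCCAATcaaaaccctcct

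Across the genome the arrays did not divide by vector. GHSROS array 3 and empty-vector array 1 lay at -29.0 and -29.6 on a first principal component that held 64.4% of the variance, and the other arrays lay between 4.0 and 22.2. Mitosis genes stood low on that pair: all 24 measured genes of a mitosis list had these arrays as their lowest 2, and the list mean was 11.13, 11.10 and 10.12 on GHSROS arrays 1 to 3, against 10.11, 10.93 and 11.16 on empty-vector arrays 1 to 3. GHSROS itself has no named probe set here, so its transcript gave no check of the labels. The line's mesenchymal markers stood above the array medians of 6.56 to 6.65 by mean of 6 arrays. All marker counts here use that mean. Vimentin (VIM) was far above, at 13.07 in GHSROS arrays and 13.24 in empty-vector arrays. S100A4 was near the medians, at 6.70 and 6.93, and fell below them on GHSROS arrays 1 and 2 (6.48 and 6.45). The luminal markers ESR1 (5.15 and 5.10) and CDH1 (5.14 and 5.20) stood below the medians, whereas 6 of the 10 luminal markers stood above. Of plasma cell markers, a cell type rich in ER, 2 of 8 stood above those medians (SDC1, also an epithelial gene, and PRDM1), with list means of 5.72 to 5.90 on GHSROS arrays and 5.70 to 5.78 on empty-vector arrays. Markers above the medians numbered 10 of 10 for the mesenchymal list, 6 of 10 for luminal epithelium, 2 of 7 for fibroblasts, 0 of 6 for leukocytes and 2 of 5 for endothelium. In RNA from whole cultures, fewer cells with a state and less RNA per cell cannot be told apart.

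No gene of the 36 differed between GHSROS and the empty vector beyond the spread of the arrays. For each of them the arrays of at least 1 group spanned more than the difference between groups. In limma, fitted on all genes with Benjamini-Hochberg adjustment, 0 of 36 genes passed an adjusted p of 0.05, as did 0 of all 18378 genes (0%), with adjusted p values of 1 for each of the 36. Before adjustment, 0 of 36 had p under 0.05, against 1.77% of all genes. In 23 of 36 the GHSROS mean was the higher, against 50.9% of all genes. The median log2 difference was 0.03 (GHSROS minus empty vector), beside 0.002 over all genes, and 26 of 36 differences were smaller than 0.1. In 0 of 36 genes were the 3 GHSROS arrays all above or all below the 3 empty-vector arrays, against 5.51% of all genes. With GHSROS array 3 and empty-vector array 1 left out, 26 of 36 were higher, against 8778 of all 18378 genes. Then 9 of 36 did not overlap (25%, against 25.3% of all genes), and 0 of 36 had an unadjusted p under 0.05 in limma, against 432 of all 18378 genes.

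**Figure D1:**
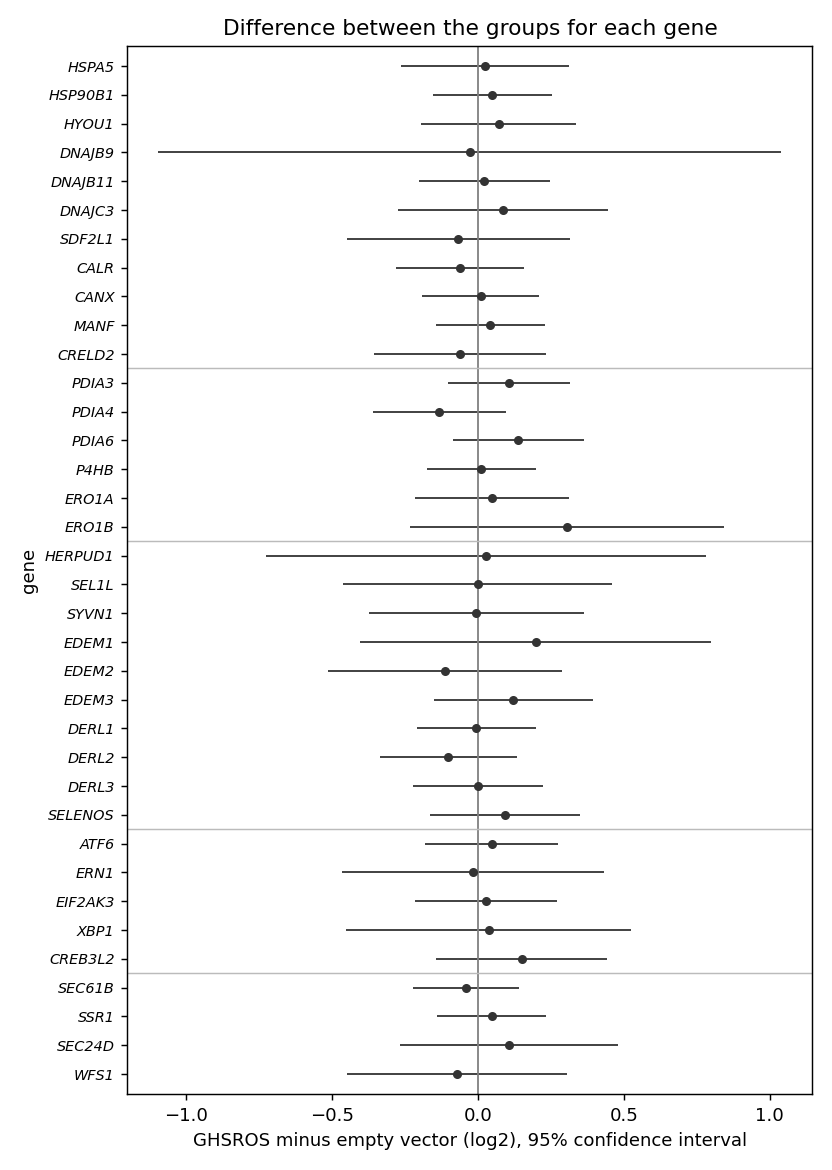
Log2 difference, GHSROS minus empty vector, for each of the 36 genes (points) with its 95% confidence interval from limma (bars), 3 arrays per group. The lines separate the roles, from chaperones at the top to translocation, export and calcium at the bottom, and every interval crosses 0.

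These intervals describe how these samples varied and cannot bound an effect of GHSROS, as separate transfections are not stated. Each is for its own gene, with no adjustment for the number of genes. Their bounds ran from -1.09 to 1.04, and the half-width was 0.18 for the narrowest interval and 1.07 for DNAJB9. Leaving out 1 array turned the sign of the difference for HSPA5, DNAJB9, CALR, HERPUD1, EDEM1, ERN1, ATF6, EIF2AK3, XBP1 and SEC24D among those given below. The count of genes with the higher GHSROS mean then ran from 17 to 29 of 36. The same share over all genes was not taken for these fits, so this count describes no trait of the 36. The range among arrays, the highest minus the lowest of 6, had a median of 0.32 over the 36 genes and 0.37 over all genes, from 0.10 for SSR1 to 1.38 for DNAJB9. It was above the median of all genes for 14 of 36, and 4 of the 36 (DNAJB9, HERPUD1, ERO1B and EDEM1) were among the widest 10% of genes while 7 were among the narrowest 10%. GHSROS array 3 and empty-vector array 1 were the highest 2 arrays for 13 of 36 genes, against 18.9% of all genes, and the lowest 2 for 4 of 36, against 20.3% of all genes. Both arrays differ from the rest in mitosis genes as well, and the part of that in these counts was not tested.

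**Figure D2:**
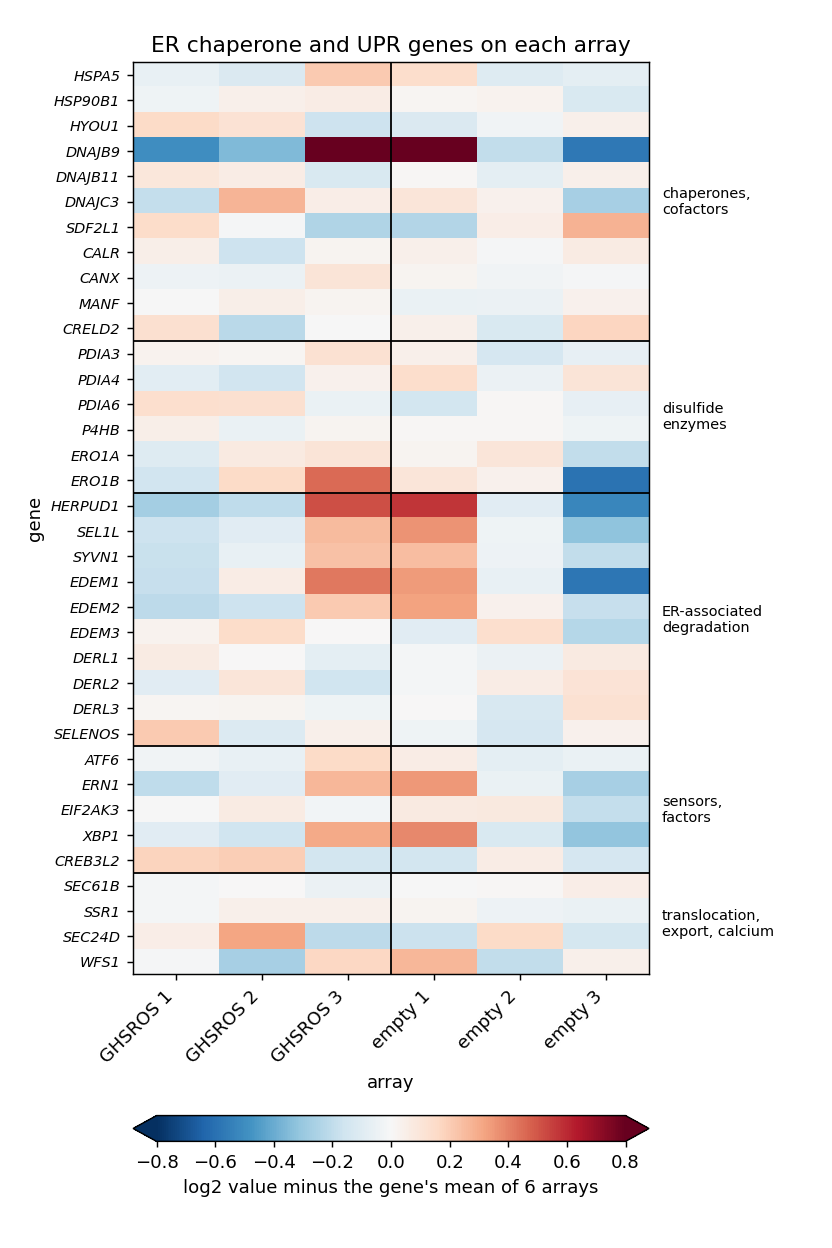
Each of the 36 genes (rows, by role) on each of the 6 arrays (columns, GHSROS left and empty vector right), coloured by its log2 value minus its mean of 6 arrays, with the scale ending at 0.8 either way. GHSROS array 3 and empty-vector array 1 are red for DNAJB9, HERPUD1, SEL1L, SYVN1, EDEM1, EDEM2, ERN1 and XBP1, and blue for HYOU1, SDF2L1, CREB3L2 and SEC24D. Empty-vector array 3 is also blue for CREB3L2 and SEC24D, and a deeper blue for DNAJB9, HERPUD1, ERO1B and EDEM1, the genes of widest range.

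Among the chaperones, HSPA5, which encodes BiP, the abundant Hsp70 of the ER and the repressor of all 3 sensors, stood at 12.68, 12.63 and 12.95 on GHSROS arrays 1 to 3, against 12.88, 12.64 and 12.66 on empty-vector arrays 1 to 3. The highest array of each group stood 0.20 or more above every other array, and the groups overlapped. The group means were 12.75 ± 0.17 with GHSROS and 12.73 ± 0.14 with the empty vector (SD, n = 3 each), a log2 difference of 0.02 (95% confidence interval -0.26 to 0.31). DNAJB9, which encodes ERdj4, a BiP cofactor and well-known XBP1 target that helps keep IRE1 inactive, stood at 7.61, 7.75 and 8.91 on the GHSROS arrays, against 8.91, 7.90 and 7.53 on the empty-vector arrays. One array of each group thus stood at 8.91, 1.01 or more above all others, and the span of 1.38 was a 2.60-fold range in level. The log2 difference between the groups was -0.03 (SE 0.45), and each group held 1 high array.

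Other cofactors ran opposite to DNAJB9 across the arrays or followed neither pattern. SDF2L1, a small stress-induced partner of the BiP cofactors, stood at 8.20, 8.04 and 7.81 on the GHSROS arrays, against 7.82, 8.10 and 8.33 on the empty-vector arrays. Its lowest 2 arrays were those on which DNAJB9 was highest. HYOU1, a large Hsp70-related chaperone that exchanges nucleotide on BiP, stood at 10.79, 10.75 and 10.47 with GHSROS, against 10.52, 10.61 and 10.67 with the empty vector, again lowest on the same pair. DNAJC3, a BiP cofactor that also inhibits PERK, stood at 9.54, 10.00 and 9.78 with GHSROS, against 9.83, 9.76 and 9.47 with the empty vector, with no such pair at either end.

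Several well-known ER chaperones varied little. HSP90B1, the Hsp90 of the ER known as GRP94, spanned 0.18 over the 6 arrays, and the lectin chaperones CANX and CALR spanned 0.15 and 0.23. CALR had the smallest p of the chaperones at a log2 difference of -0.06 (SE 0.09, unadjusted p = 0.527 in limma). MANF, a secreted stress-induced protein, spanned 0.10, DNAJB11, a further BiP cofactor, 0.22, and CRELD2, an ER stress-induced protein with isomerase activity, 0.39. CANX held GHSROS array 3 and empty-vector array 1 as its highest 2 by a margin of only 0.03, against 1.01 for DNAJB9. Of all genes, 90.9% had a range at least as wide as that of HSP90B1, 94.7% at least as wide as that of CANX and 99.0% at least as wide as that of MANF.

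Among the disulfide enzymes, PDIA6, a protein disulfide isomerase that also tempers IRE1 signalling, stood at 12.27, 12.26 and 12.08 on the GHSROS arrays, against 11.99, 12.14 and 12.07 on the empty-vector arrays. Only GHSROS array 3 overlapped the empty-vector arrays. It had the smallest p of all 36 genes, with a log2 difference of 0.14 (SE 0.09, unadjusted p = 0.188 in limma). PDIA4, an isomerase of the same family, ran the other way, at 11.20, 11.13 and 11.32 with GHSROS, against 11.42, 11.23 and 11.38 with the empty vector, a log2 difference of -0.13 (SE 0.10, unadjusted p = 0.212 in limma). Neither passed, and the difference between their differences was not tested.

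ERO1A and ERO1B encode the oxidases that recharge these isomerases. ERO1B stood at 7.03, 7.34 and 7.64 on the GHSROS arrays, against 7.28, 7.22 and 6.59 on the empty-vector arrays. Its log2 difference of 0.31 (SE 0.23) was the largest of the 36, and it was 0.46 when GHSROS array 1 was left out, 0.15 when GHSROS array 3 was, and 0.09 when empty-vector array 3, the lowest array by far, was. ERO1A stood at 11.74, 11.91 and 11.94 with GHSROS, against 11.86, 11.94 and 11.64 with the empty vector, also lowest on empty-vector array 3. P4HB, the founding member of the isomerase family, spanned 0.10 and its dimmer probe set 0.16, and PDIA3, which works on glycoproteins with CANX and CALR, spanned 0.26 in the brighter of the probe sets it shares with its pseudogene.

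The degradation genes parted into 5 that were highest on GHSROS array 3 and empty-vector array 1 and 5 that were not. HERPUD1, a stress-induced membrane protein that organises the retrotranslocation complex, stood at 10.34, 10.41 and 11.13 on the GHSROS arrays, against 11.19, 10.52 and 10.09 on the empty-vector arrays. The pair stood 0.61 or more above every other array, a larger gap than any other gene of the 36 showed except DNAJB9. The log2 difference between the groups was 0.03 (95% confidence interval -0.73 to 0.78). EDEM1, a lectin that hands misfolded glycoproteins to degradation, stood at 9.66, 9.90 and 10.26 with GHSROS, against 10.18, 9.78 and 9.26 with the empty vector. Its log2 difference was 0.20 (SE 0.25), with groups that overlapped.

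SEL1L and SYVN1 encode the scaffold and the ubiquitin ligase (HRD1) at the core of this pathway. SEL1L stood at 9.86, 9.94 and 10.28 on the GHSROS arrays, against 10.39, 9.99 and 9.70 on the empty-vector arrays. SYVN1 stood at 10.11, 10.23 and 10.52 with GHSROS, against 10.53, 10.24 and 10.09 with the empty vector. Both were ordered alike, with group means of 10.03 with GHSROS and 10.03 with the empty vector for SEL1L, and 10.28 and 10.29 for SYVN1. EDEM2, which starts mannose trimming of glycoproteins, likewise stood highest on the pair, at 8.67, 8.71 and 9.10 with GHSROS, against 9.20, 8.92 and 8.70 with the empty vector.

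The remaining 5 degradation genes spanned 0.15 to 0.37, against 0.45 to 1.10 for the 5 above. EDEM3, a mannosidase related to EDEM1, had the smallest p among the degradation genes, at 10.17, 10.29 and 10.15 on the GHSROS arrays, against 10.05, 10.28 and 9.92 on the empty-vector arrays, a log2 difference of 0.12 (SE 0.11, unadjusted p = 0.326 in limma). It was 0.08 without GHSROS array 2, 0.22 without empty-vector array 2 and 0.04 without empty-vector array 3. The rhomboid-like retrotranslocation proteins DERL1 and DERL2 spanned 0.15 and 0.27. DERL3, their stress-inducible relative, averaged 7.02 over the 6 arrays and spanned 0.25. SELENOS, a selenoprotein that recruits the cytosolic segregase to the DERL proteins, spanned 0.34 and was highest on GHSROS array 1.

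**Figure D3:**
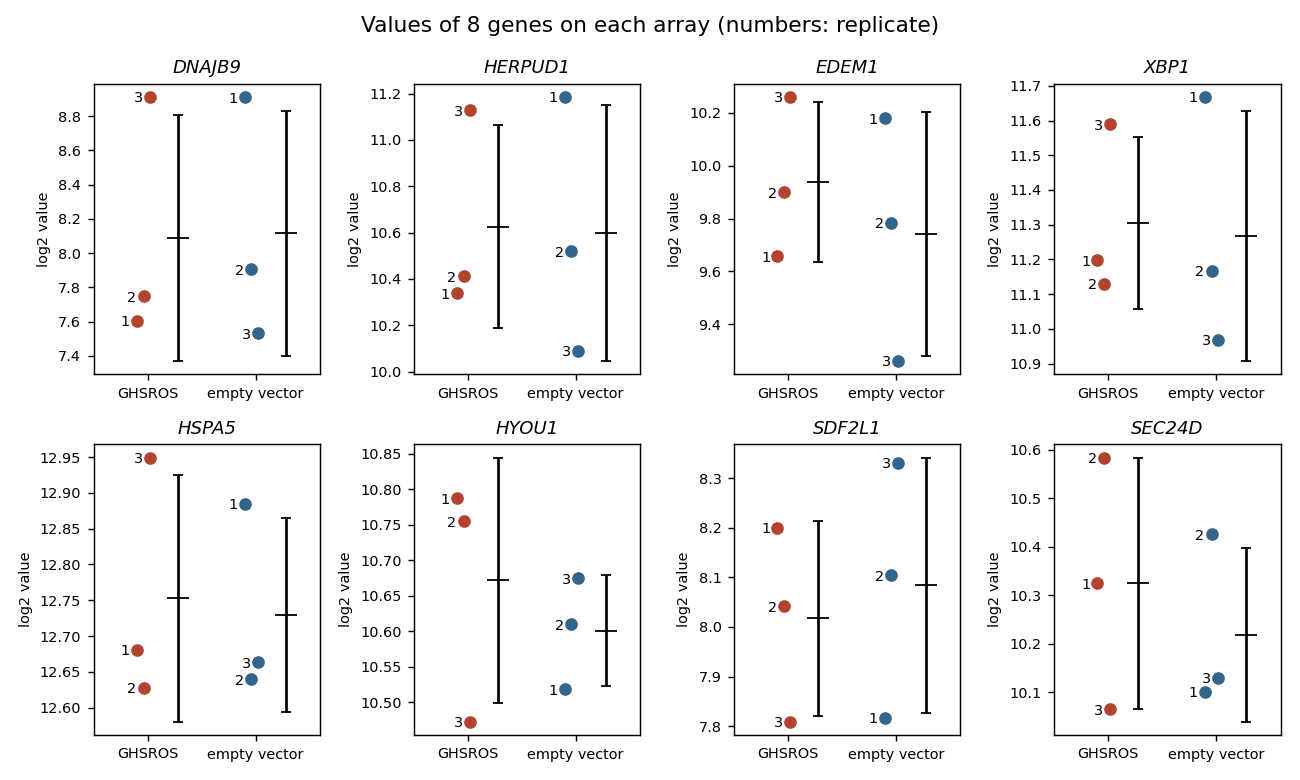
Log2 values of 8 genes on each array (points, numbered by replicate), GHSROS left and empty vector right, with the mean and SD of each group (bars, n = 3). DNAJB9, HERPUD1, EDEM1, XBP1 and HSPA5 are highest on GHSROS array 3 and empty-vector array 1, whereas HYOU1, SDF2L1 and SEC24D are lowest there. SEC24D is nearly as low on empty-vector array 3.

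Of the 3 sensors, ERN1 varied most. It stood at 8.996, 9.11 and 9.46 on the GHSROS arrays, against 9.54, 9.15 and 8.93 on the empty-vector arrays, a log2 difference of -0.02 (SE 0.19). ATF6 kept the same highest pair over a narrower span, at 11.49, 11.45 and 11.67 with GHSROS, against 11.57, 11.43 and 11.46 with the empty vector (log2 difference 0.05, SE 0.10). EIF2AK3 did not, at 7.99, 8.06 and 7.97 with GHSROS, against 8.07, 8.07 and 7.80 with the empty vector, a log2 difference of 0.03 (SE 0.10). Thus 2 of the 3 sensor genes were highest on that pair of arrays, and the groups overlapped for all 3.

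XBP1, the transcription factor activated by IRE1, stood at 11.20, 11.13 and 11.59 on the GHSROS arrays, against 11.67, 11.17 and 10.97 on the empty-vector arrays. The order was that of ERN1 at its top and bottom, with 0.39 or more between the highest 2 and the rest, and the group means of 11.31 ± 0.25 with GHSROS and 11.27 ± 0.36 with the empty vector (SD, n = 3 each) differed by 0.04 (SE 0.21). CREB3L2, an ER-anchored factor of the ATF6 kind that drives genes of export from the ER, ran the other way, at 10.78, 10.80 and 10.46 with GHSROS, against 10.46, 10.66 and 10.47 with the empty vector. Its log2 difference was 0.15 (SE 0.12, unadjusted p = 0.262 in limma), with 0.09 without GHSROS array 2 and 0.26 without GHSROS array 3. SEC24D, a cargo adaptor of the COPII export coat, was likewise lowest on the pair, again with empty-vector array 3 nearly as low. It stood at 10.32, 10.58 and 10.06 with GHSROS, against 10.10, 10.43 and 10.13 with the empty vector, a log2 difference of 0.11 (SE 0.16).

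WFS1, an ER membrane protein involved in calcium balance and a known stress-induced gene, stood at 9.08, 8.82 and 9.26 on the GHSROS arrays, against 9.36, 8.89 and 9.13 on the empty-vector arrays, highest on the same pair. The translocation genes SEC61B, a subunit of the channel through which new proteins enter, and SSR1, a subunit of the complex beside it, spanned 0.10 each. SEC61B stood at 12.08, 12.09 and 12.04 with GHSROS, against 12.09, 12.10 and 12.14 with the empty vector. Of all genes, 99.0% had a range at least as wide as that of SEC61B and 99.1% at least as wide as that of SSR1.

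Promoter elements were found in genes of either array pattern and in genes of neither. Of the 12 genes with a promoter window that were highest on GHSROS array 3 and empty-vector array 1, 3 held an ERSE (HSPA5, CANX and XBP1) and 1 an ERSE-II (HERPUD1). Of the 3 with a window that were lowest there, 0 held an ERSE and 2 held an ERSE-II, HYOU1 and SDF2L1. The other genes with an ERSE, HSP90B1, CALR, CRELD2, PDIA6 and ERO1B, had that pair neither highest nor lowest. The ERSE-II stretches printed above for HERPUD1, HYOU1 and SDF2L1 thus belong to genes that ran in opposite directions. DNAJB9, the gene with the widest range, had none of the 4 motifs in its window, which says only that these letters are not there.

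Other genes, taken as whole lists, followed this array pattern to different degrees. The list called the PERK and ATF4 arm also holds genes of amino acid synthesis, amino acid transport and tRNA charging. On it 24 of 35 measured genes (68.6%) were highest on GHSROS array 3 and empty-vector array 1. The list mean was 9.78, 9.82 and 10.56 on GHSROS arrays 1 to 3, against 10.52, 10.01 and 9.71 on the empty-vector arrays. NUPR1, a stress-induced nuclear protein, had the widest range, at 6.79, 6.62 and 10.93 with GHSROS, against 10.82, 6.74 and 6.61 with the empty vector, followed by the stress cytokine gene GDF15 at 9.57, 9.47 and 12.20 with GHSROS, against 11.83, 9.82 and 8.89 with the empty vector. Between the groups 14 of 35 were higher, 21 lower and 0 passed, and the smallest p values belonged to the amino acid transporter SLC1A5 (log2 difference -0.14, SE 0.12) and to PPP1R15A, which restores translation after PERK (-0.13, SE 0.13). ATF4 itself was not highest on that pair, nor was EIF2AK3. ATF4 stood at 9.95, 10.08 and 10.14 with GHSROS, against 10.33, 10.32 and 9.59 with the empty vector. Whether PERK has a part in the pattern of this list was not tested. The other factors and proteases of ER stress had 6 of 12 higher, 6 lower and 0 past the test, with the protease MBTPS2, which cuts ATF6, at 0.07 (SE 0.09) and NFYB, a CCAAT-binding subunit, at 0.12 (SE 0.18). CREB3L1, a relative of CREB3L2, had the widest range of that list at 0.87, with NFYB next at 0.64.

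**Figure D4:**
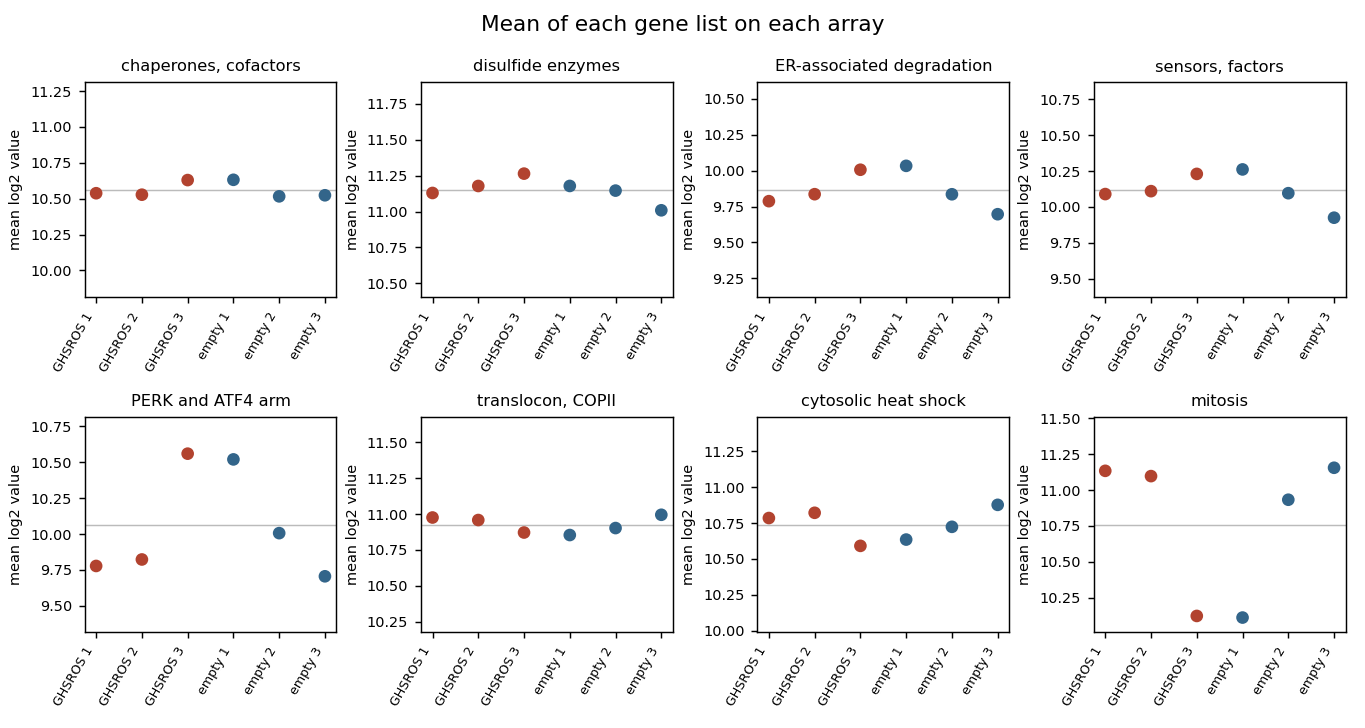
Mean log2 value of 4 role groups of the 36 genes (top row) and 4 other lists (bottom row) on each array, GHSROS in red and empty vector in blue, with a grey line at the mean of 6 arrays and axes of equal height. The PERK and ATF4 list stands at 10.56 and 10.52 on GHSROS array 3 and empty-vector array 1, and the mitosis list at 10.12 and 10.11.

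Among 44 other ER folding genes 18 were higher, 26 lower and 0 passed. FKBP10, a prolyl isomerase of the ER that helps collagen fold, had the smallest p and the widest range, at 7.49, 7.46 and 8.27 on the GHSROS arrays, against 6.90, 6.23 and 6.61 on the empty-vector arrays. Here the groups did not overlap, and the log2 difference was 1.16 (SE 0.26, unadjusted p = 0.00319, adjusted p = 1 in limma), with 1.05 (adjusted p = 0.615) when GHSROS array 3 and empty-vector array 1 were left out. ERLEC1, a lectin of the degradation complex, also had groups apart, at 0.17 (SE 0.09), and FKBP14, a second isomerase for collagens, spanned 0.88 with groups that overlapped. SDF2 and MESD, named after their values were seen, had groups apart with lower GHSROS values. In all 4 of these 44 genes had groups apart, a share of 9.09% beside the 5.51% of all genes.

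Among 30 other degradation genes 13 were higher, 17 lower and 0 passed. GHSROS array 3 and empty-vector array 1 were the highest 2 for 8 of the 30 (26.7%) and the lowest 2 for another 8 (26.7%). FOXRED2, an ER flavoprotein of this pathway, had the smallest p and the widest range, with a log2 difference of -0.44 (SE 0.18, unadjusted p = 0.0474, adjusted p = 1 in limma), and TMUB1 followed at -0.15 (SE 0.09). In 3 of the 30, TMUB1 among them, the groups did not overlap, with lower GHSROS values, beside 5.51% of all genes with groups apart. SVIP, a small inhibitor of the pathway, spanned 0.85. Of the translocon, signal peptidase, glycosylation and COPII genes 28 of 43 were higher, 15 lower and 0 passed, with the coat genes SEC24A at 0.18 (SE 0.12) and SEC24C at -0.13 (SE 0.10). On that list 18 of 43 (41.9%) were lowest on GHSROS array 3 and empty-vector array 1, among them the translocon genes of widest range, SEC61A2 (1.15) and SSR3 (1.04).

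The list of cytosolic heat shock genes also holds subunits of the cytosolic chaperonin. Of its 21 measured genes 10 (47.6%) were lowest on GHSROS array 3 and empty-vector array 1 and 1 was highest there. Between the groups 10 of 21 were higher, 11 lower and 0 passed, with the smallest p for the Hsp40 gene DNAJB1 (log2 difference -0.20, SE 0.11) and HSPA1L (-0.36, SE 0.21), a relative of the inducible Hsp70 genes, and the widest ranges for CHORDC1 (1.66) and HSPA4L (1.18). Of 12 mitochondrial chaperones and proteases 7 (58.3%) were lowest on that pair and 1 was highest. There 5 were higher in the GHSROS arrays, 7 lower and 0 passed, with the proteases YME1L1 at -0.10 (SE 0.08) and CLPX, a partner of one, at 0.08 (SE 0.09), while GRPEL1 (0.74) and HSPE1 (0.66) had the widest ranges. In the mitosis list 17 of 24 were higher, 7 lower and 0 passed, with NUSAP1 at 0.26 (SE 0.28), TOP2A at 0.10 (SE 0.18) and the widest ranges for CDC20 (1.55) and CENPE (1.53).

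**Figure D5:**
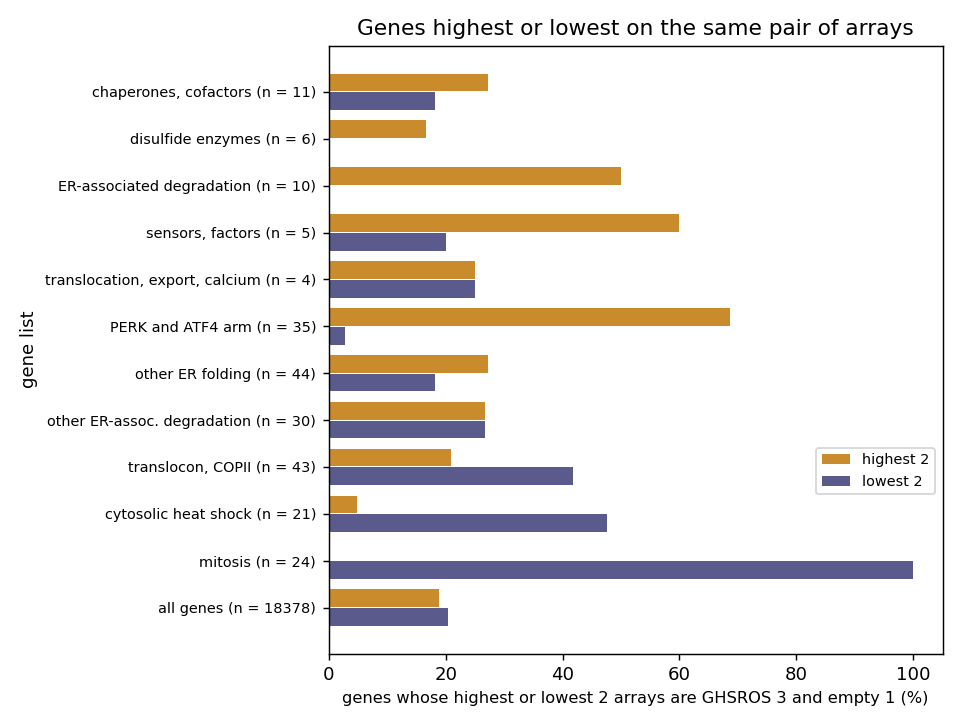
Percent of the genes of each list whose highest 2 arrays (upper bar) or lowest 2 arrays (lower bar) were GHSROS array 3 and empty-vector array 1, for the role groups of the 36 genes, other lists and all genes. The bars for all genes stand at 18.9% and 20.3%, those of the PERK and ATF4 arm at 68.6% and 2.86%, and those of mitosis at 0% and 100%.

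By role, the share of genes highest on that pair was 5 of 10 for degradation and 3 of 5 for sensors and factors, against 3 of 11 for chaperones, 1 of 6 for disulfide enzymes and 1 of 4 for translocation, export and calcium. The disulfide enzyme counted was PDIA3, by a margin of only 0.02, and its dimmer probe set was highest on GHSROS arrays 3 and 2 instead. The means of the degradation genes were 9.79, 9.84 and 10.01 on GHSROS arrays 1 to 3, against 10.03, 9.84 and 9.70 on empty-vector arrays 1 to 3, and those of the chaperones 10.54, 10.53 and 10.63, against 10.63, 10.52 and 10.52. Between the groups the median log2 difference was 0.02 for chaperones (7 of 11 higher), 0.08 for disulfide enzymes (5 of 6), 0.04 for sensors and factors (4 of 5) and 0.004 for translocation, export and calcium (2 of 4). For degradation it was -0.00007 (5 of 10 higher). These role groups were compared as counts, with no test of one against another.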

How the data were processed

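Total RNA of 6 samples was read on 6 arrays, 3 per group. The deposited table holds log2 values, for which the submitters' processing notes name RMA. RMA subtracts background, quantile-normalises and summarises probes, so a shift common to most genes would be removed. Its version and settings are not given. No scanner files were used. The number of arrays limits precision.

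Of 28869 probe sets, 19310 have 1 gene symbol in the platform annotation, 1752 several and 7807 are not listed. Each gene took its brightest probe set with 1 symbol (a gene of the 36 could use one with several), giving 18378 genes. Differences were fitted with limma 3.58.1 (R 4.3.3, lmFit and eBayes, group only), adjusted over all genes by Benjamini-Hochberg at 0.05, and the fit was tested on simulated data. Promoters are RefSeq sequences of GRCh38.p14, searched for exact motifs. Alternatives covered normalisation, the probe set choice, dim genes, the spread model, array weights, a replicate block and arrays left out.

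All 36 genes are named. Of each other list, the 2 genes with the smallest unadjusted p and the 2 with the widest range are named. Of the marker lists, genes that check the label are named, and SDC1, PRDM1 and S100A4 were named after their values were seen. So were ATF4, SDF2 and MESD of the other lists. The 36 genes and all lists were chosen with earlier results of these data known.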

Additional observations from a re-analysis of the deposited data

How the results depend on the processing

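Under all 16 alternatives 0 of 36 genes passed and 0 had an unadjusted p under 0.05 in limma, while at that unadjusted p there were 76 of 9189 genes at or above the median level, 565 of all probe sets, and 191 to 877 genes under the alternatives that kept the full gene table. Groups that did not overlap numbered 1 of 36 after quantile normalisation (2.78%, against 5.78% of all genes), 9 with GHSROS array 3 and empty-vector array 1 left out (25%, against 25.3%), and 2 to 6 when 1 array was left out (5.56% to 16.7%, against 10.4% to 17.2%). ERN1 turned to 0.0214 after quantile normalisation and to 0.0130 without both arrays. With array weights HERPUD1 turned to -0.11, EIF2AK3 to -0.0137 and XBP1 to -0.0065; the cause was not tested. With 1 array left out, log2 differences ran from -0.44 to 0.37 for DNAJB9, -0.16 to 0.15 for ERN1, -0.10 to 0.0056 for CALR, -0.0243 to 0.24 for SEC24D, -0.0746 to 0.10 for HSPA5, -0.23 to 0.32 for HERPUD1, -0.0185 to 0.0902 for ATF6, -0.11 to 0.24 for XBP1, -0.0421 to 0.42 for EDEM1 and -0.0603 to 0.0743 for EIF2AK3. In all, 13 of 36 genes kept their sign under every alternative. Same-numbered arrays deviated from their group means with correlations of -0.71, 0.50 and -0.67 over all genes, so the numbers were not taken as pairs; with a replicate block 0 genes passed, 23 of 36 were higher, and unadjusted calls over all genes numbered 223, against 325 without it. The count highest on GHSROS array 3 and empty-vector array 1 was 12 or 13 wherever all 6 arrays were kept. It was 13 to 16 with 1 other array left out, where fewer pairs of arrays are possible. The same share over all genes was not taken under these alternatives, so the counts describe no trait of the 36.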
